A study of Mus musculus with 9 samples.

Results

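The genes of glycolysis and glycogen metabolism were examined in mouse gastrocnemius, the large calf muscle. They comprise 34 genes chosen by symbol, among them the glycolytic enzymes and the enzymes that build and degrade glycogen with their regulators. Each of the 34 matched 1 row of the deposited table of 35275 genes. Wild-type C57BL/6J mice, 8 to 10 weeks old, carried an osmotic pump, a small implanted reservoir with a constant outflow. The pump delivered ammonium acetate (2.5 mmol per kg per day, 5 libraries) or phosphate-buffered saline (PBS, 4 libraries). Muscle was taken after 4 weeks and its RNA was sequenced, which addresses how muscle responds to a load of ammonia. Libraries are called by the numbers in the labels, PBS 4, 5, 7 and 8 and ammonium acetate 4 to 8. No label states that each library came from a separate mouse, so a p-value here covers the spread from library to library, which may be technical. A muscle sample also holds vessels, connective tissue and blood, and in such bulk RNA fewer cells of a type cannot be told apart from less RNA per cell.

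Glycolysis splits glucose into pyruvate and yields ATP without oxygen. Pyruvate is then reduced to lactate or enters the mitochondria. Fast-twitch fibres, which make up most of the mouse gastrocnemius, hold large amounts of the glycolytic enzymes and of glycogen, their own store of glucose. Many steps have a form made mainly in muscle beside a form made in most tissues, and phosphoglycerate mutase (muscle form Pgam2, common form Pgam1) is such a pair. Glycogen phosphorylase (Pygm) releases glucose phosphate from glycogen, and glycogen synthase (Gys1) adds glucose to it. Proteins encoded by Ppp1r3a and Ppp1r3c bring protein phosphatase 1 to glycogen, where it favours synthesis.

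Upstream sequence was available for 33 of the 34 genes, as 48 windows of the 250 bases before a RefSeq transcript start (build GRCm38.p6, the same assembly as the mm10 of the files). The pair Pgam2 and Pgam1 is shown because it had the most unequal levels of the isozyme pairs compared below, and Pgk1 and Fbp2 because they were among the genes of smallest p between the groups. Each is written 5′ to 3′ on the strand of its gene, from chr11:5803797-5804046 (minus strand) for Pgam2, chr19:41911621-41911870 (plus) for Pgam1, chrX:106186850-106187099 (plus) for Pgk1 and chr13:62858401-62858650 (minus) for Fbp2. Capitals mark letters of an E-box (CANNTG, the motif of myogenic factors), of the core of the hypoxia response element (ACGTG) or of a MEF2 box, on either strand.
Pgam2: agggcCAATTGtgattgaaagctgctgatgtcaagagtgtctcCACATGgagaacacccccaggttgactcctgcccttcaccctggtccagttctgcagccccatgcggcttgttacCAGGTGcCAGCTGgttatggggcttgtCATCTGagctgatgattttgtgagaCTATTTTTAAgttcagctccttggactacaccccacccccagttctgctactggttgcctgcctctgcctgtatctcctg
Pgam1: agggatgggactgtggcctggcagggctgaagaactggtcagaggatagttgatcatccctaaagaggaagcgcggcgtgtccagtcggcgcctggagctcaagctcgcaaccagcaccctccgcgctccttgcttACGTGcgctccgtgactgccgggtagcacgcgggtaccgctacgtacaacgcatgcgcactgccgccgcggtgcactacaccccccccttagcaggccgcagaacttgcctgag
Pgk1: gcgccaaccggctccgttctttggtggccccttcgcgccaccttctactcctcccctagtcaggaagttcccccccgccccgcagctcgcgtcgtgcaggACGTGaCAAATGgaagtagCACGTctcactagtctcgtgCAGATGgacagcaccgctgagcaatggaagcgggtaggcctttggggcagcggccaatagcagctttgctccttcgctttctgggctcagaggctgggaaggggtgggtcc
Fbp2: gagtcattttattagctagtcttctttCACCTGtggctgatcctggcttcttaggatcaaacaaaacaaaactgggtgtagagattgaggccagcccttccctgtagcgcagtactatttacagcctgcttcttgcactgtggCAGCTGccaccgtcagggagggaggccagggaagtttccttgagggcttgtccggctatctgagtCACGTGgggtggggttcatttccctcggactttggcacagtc
The Pgam2 window held 5 E-boxes and 1 MEF2 box, and the Pgam1 window held no E-box, no MEF2 box and 1 hypoxia core. The Pgk1 window held 2 hypoxia cores and 2 E-boxes, and the Fbp2 window 3 E-boxes, of which CACGTG is also a hypoxia core on both strands. An E-box was present in 66.2% of all 32851 windows and in 75.0% of the 48, so its presence alone sets no gene apart. The hypoxia core was present in 16.6% of all windows and in 17 of the 48 (35.4%), and the MEF2 box in 2.9% and 6.2%. Some windows of the same gene overlap, so a site can count more than once, as a hypoxia core of Aldoa did. By gene, 15 of the 33 had a hypoxia core, and no share was tested. All motifs given here are matches of letters, and none is shown to be a bound site.

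The values are FPKM, reads scaled by gene length and by the counted reads of the library, so levels can be compared between genes. All 34 genes were measured above the filter (a mean of at least 0.5 FPKM over the 9 libraries). Their PBS means spanned from 1.06 FPKM for the row listed as Pgm1, which RefSeq calls Pgm2, to 12023 for Aldoa. The PBS mean was above 1000 FPKM in 9 genes, from 100 to 1000 in 12, from 10 to 100 in 8 and under 10 in 5, where the median over all genes tested was 4.88. Together the 34 genes took from 5.85% (PBS 8) to 7.39% (PBS 7) of the reads of a PBS library and from 6.87% (ammonium acetate 7) to 8.6% (ammonium acetate 6) in ammonium acetate. The plot of levels by library shows that differences between genes were far larger than those between libraries. PBS 8 was the lowest of the 9 libraries in 12 of the 34 genes, ammonium acetate 6 in 8 and ammonium acetate 8 in 7.

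**Figure D1:**
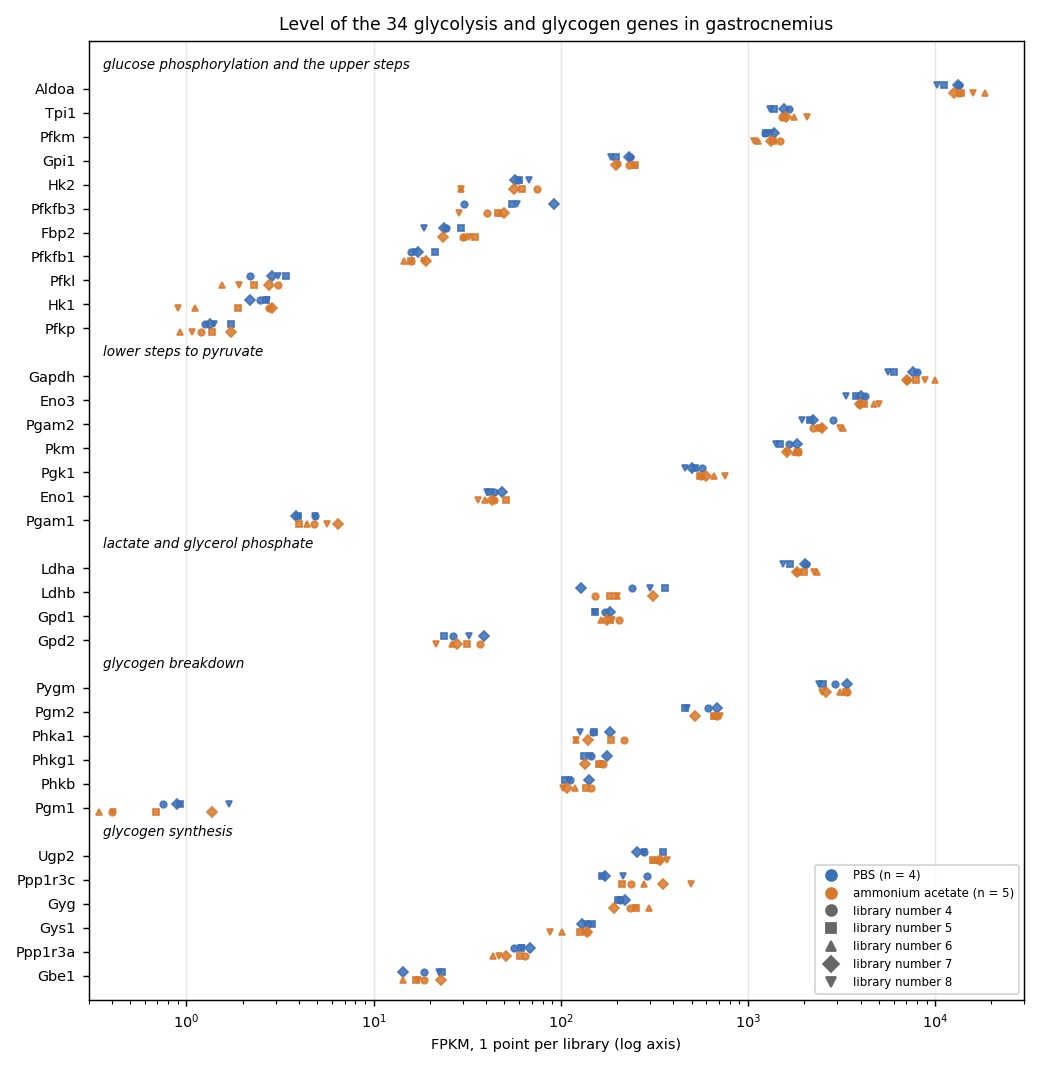
FPKM of each of the 34 genes in the 4 PBS (blue) and 5 ammonium acetate (orange) libraries on a log axis, grouped by role, with 1 point per library and the marker shape giving the library number. Levels run from about 1 FPKM (Pgm1) to 12023 in PBS (Aldoa), and in every gene the points of the 2 groups overlap.

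Depth and the other tissues of the sample bear on these values. The reads recovered from the values numbered from 24930547 to 41780251 per library. Ammonium acetate 6 and 8 stood apart by gene length: genes of at least 4428 bases had a median deviation from the mean over libraries of -0.39 and -0.23 on the log2 scale there, against -0.06 to 0.26 in the other 7 libraries. Genes of at most 1859 bases deviated by 0.11 and 0.24 there, against -0.11 to 0.03 in the others. Of 10 markers of fast fibres, 9 were abundant in each library, as the labelled tissue calls for, the lowest value being 165.8 FPKM (Myh1 in ammonium acetate 8). The remaining marker, Tnnc2, a troponin of fast fibres, was listed between 0 and 0.337 FPKM, so a low listed level need not be a low level in the tissue. The log2 fold change was above 0 in 5 of the 9 fast fibre markers tested, and Myh1, a fast myosin, had the lowest at -1.02 (adjusted p = 0.527). Endothelial markers summed to 83.2 to 98.8 FPKM under PBS and to 39.8 to 91.0 with ammonium acetate, with 6 of 6 at lower values. The lowest sums were those of ammonium acetate 6 (39.8) and 8 (50.2), against 71.0 to 91.0 in ammonium acetate 4, 5 and 7. These markers are 3441 (Pecam1) to 6895 bases (Flt1) long. Their log2 fold changes ran from -0.82 (Kdr) to -0.20 (Emcn), and from -0.36 (Kdr) to -0.10 (Emcn) without ammonium acetate 6 and 8. The part of gene length here was not tested. Erythroid markers summed to 167 to 221 and 108 to 164 FPKM, with 5 of 5 at lower values. Markers of fibro-adipogenic cells (5 of 5), macrophages (4 of 4), fat cells (4 of 4) and Schwann cells (4 of 4) were also at lower values, with summed levels that overlapped between the groups. Of 4 smooth muscle markers, 2 were at higher and 2 at lower values. Over all genes tested, 6358 of 11337 were at lower values. Skin markers summed to 62.0 FPKM in ammonium acetate 5, to 0.725 to 1.24 in the other 4 ammonium acetate libraries and to 0.491 to 0.709 under PBS. None of these markers passed the adjusted threshold, and the part of these cells in the results below was not tested.

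Ammonium acetate was compared with PBS over all 11337 genes that passed the filter, by limma on log2(FPKM + 0.5) with Benjamini-Hochberg adjustment. None of the 34 genes passed an adjusted p of 0.05, against 0% of all genes tested, and the smallest adjusted p of the list, 0.527, was also the smallest of the table. At an unadjusted p under 0.05 there were 3 of 34 (8.82%), namely Fbp2, Ppp1r3c and Pgk1, where the background was 8.57% of all genes, so the count is near the background. All 3 were higher in ammonium acetate, against a background of 3.21% higher and 5.36% lower. By limma's voom on recovered reads the unadjusted count was also 3, with the row listed as Pgm1 (Pgm2 in RefSeq) in the place of Pgk1. It was 1, Ppp1r3c, with the gene length trend removed, where 8.77% of all genes had such a p. With upper-quartile scaling it was also 1, Ppp1r3c, against 9.69% of all genes. It was 0 without PBS 8 and without ammonium acetate 6 or 8, where 2.70% to 4.46% of all genes had such a p, and 5 without ammonium acetate 4, where 15.2% had. In 0 of 34 genes the groups lay apart without overlap, which was so in 2.13% of all genes. The log2 fold change was above 0 in 20 of 34 genes, against 43.9% of all genes. Its median was 0.08, against -0.035 over all genes tested. It ran from -0.49 for the row listed as Pgm1 (Pgm2 in RefSeq) to 0.55 for Ppp1r3c.

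The 95% intervals were taken gene by gene, without adjustment for the number of genes. In 32 of the 34 genes the interval of the difference lay within a 2-fold change in either direction. The exceptions were Ppp1r3c (0.02 to 1.08) and the row listed as Pgm1 (-1.04 to 0.06). This count holds for the pseudocount of 0.5, and the lower limits of Pfkfb3 (-0.97) and Hk1 (-0.95) lay near 2-fold. The log2 fold change of Hk1 was -0.40, and -0.50 with a pseudocount of 0.1. The width of the interval ran from 0.45 log2 units for Gpd1 to 1.21 for Ldhb.

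**Figure D2:**
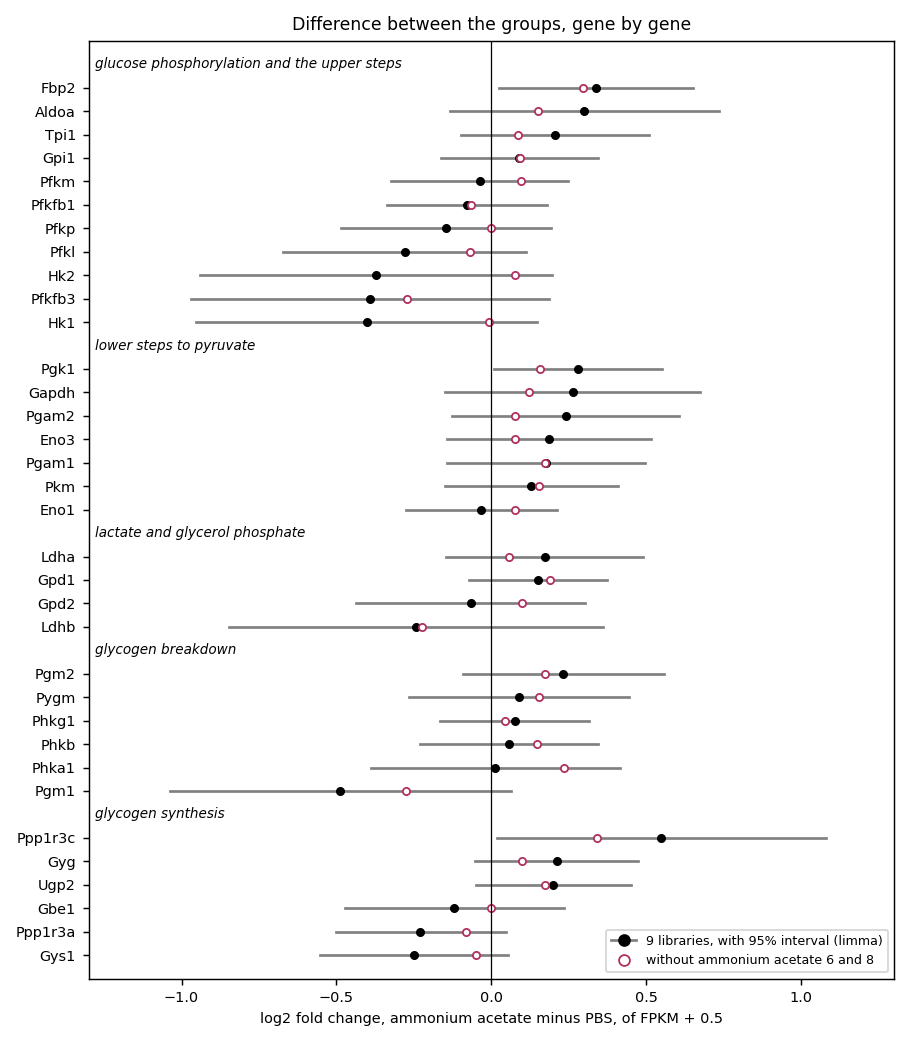
Log2 fold change of each gene (ammonium acetate minus PBS, of FPKM + 0.5) by role, with filled points and 95% intervals from limma over the 9 libraries and open points for the fit without ammonium acetate 6 and 8. The intervals of Fbp2, Pgk1 and Ppp1r3c exclude 0 before adjustment, and the open points of Hk2, Pfkm, Eno1 and Gpd2 lie on the other side of 0 from their filled points.

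The upper steps of glycolysis run from glucose to triose phosphates. Here 4 of 11 genes had a higher mean log2 level in ammonium acetate and 7 a lower one. Of all genes tested 43.9% were higher, and none of the 11 passed the test. Without ammonium acetate 6 and 8, 6 of the 11 were higher and 5 lower, against 5647 and 5779 of all genes tested in that fit. The median log2 fold change of the 11 was then 0.075 instead of -0.079. Aldoa, the aldolase that splits the sugar into trioses, had the highest level of all 34 genes. It measured 13486, 11141, 13272 and 10193 FPKM in PBS 4, 5, 7 and 8, and 13463, 13760, 18428, 12567 and 16001 in ammonium acetate 4 to 8. Ammonium acetate 5, 6 and 8 lay above every PBS library and the other two within the PBS range. Its log2 fold change was 0.30 (SE 0.20, adjusted p = 0.534), or 0.15 without ammonium acetate 6 and 8. Exons of 14 of the 34 genes, Aldoa, Gapdh, Gys1 and Ugp2 among them, overlap those of another gene of the table, and whether the counting used strand is not stated in what was used here. Triosephosphate isomerase (Tpi1) averaged 1476 ± 159 FPKM (SD, 4 PBS libraries) and 1703 ± 224 (SD, 5 ammonium acetate libraries). Paired means below follow that order, with the SD. Glucose phosphate isomerase (Gpi1) averaged 212 ± 23.9 and 226 ± 24.5.

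Hexokinase traps glucose in the fibre as glucose phosphate, and phosphofructokinase commits it to glycolysis. Hexokinase 2 (Hk2), the form of insulin-responsive muscle, measured 58.9, 59.6, 57.0 and 67.4 FPKM in PBS 4, 5, 7 and 8, and 74.7, 62.2, 29.2, 56.1 and 29.2 in ammonium acetate 4 to 8. The ammonium acetate libraries 6 and 8 were the 2 lowest of the 9, and 4 was the highest. Hk2 had a log2 fold change of -0.37 (SE 0.26, adjusted p = 0.546), and 0.075 without libraries 6 and 8. Hk1, the form of most tissues, averaged 2.50 ± 0.239 and 1.91 ± 0.909 FPKM, with 122 to 433 reads per library and the same 2 libraries lowest. The muscle phosphofructokinase Pfkm measured 1298 ± 64.1 and 1272 ± 170.0 FPKM, with a log2 fold change of -0.04 and an interval from -0.32 to 0.25. The liver and platelet forms, Pfkl and Pfkp, lay at 2.89 ± 0.516 and 1.43 ± 0.207 FPKM in PBS, and at 2.32 ± 0.623 and 1.26 ± 0.31 in ammonium acetate.

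Pfkfb1 and Pfkfb3 make and remove the sugar bisphosphate that activates phosphofructokinase. Pfkfb3 had the widest relative spread among PBS libraries of the 34 genes, with a coefficient of variation of 43.1%. It stood at 30.3 FPKM in PBS 4 and 92.1 in PBS 7, and all 5 ammonium acetate libraries (28.4 to 49.9) lay below the other 3 PBS libraries (54.6 to 92.1). Its log2 fold change was -0.39 (interval -0.97 to 0.19), and it ran from -0.14 without PBS 7 to -0.67 without PBS 4. Pfkfb1 measured 17.8 ± 2.38 and 16.8 ± 2.0 FPKM.

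Fbp2, the muscle fructose bisphosphatase that runs the phosphofructokinase step backwards, had the smallest unadjusted p of the list (0.0376, adjusted p = 0.527). Its gene lies on chromosome 13 (62836884 to 62858400, minus strand, mm10). It measured 24.3, 29.1, 23.7 and 18.5 FPKM in PBS 4, 5, 7 and 8, and 30.2, 34.8, 30.2, 23.4 and 32.5 in ammonium acetate 4 to 8. Ammonium acetate 7 lay below PBS 4, 5 and 7, and the other 4 lay above every PBS library. The log2 fold change of 0.34 (SE 0.14) was 0.29 without ammonium acetate 6 and 8 and 0.23 with the gene length trend removed.

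The lower steps, from triose phosphate to pyruvate, had 6 of 7 genes with higher values in ammonium acetate, and none passed the test. Of all genes tested 43.9% were higher, and 64.1% of those of 840 to 2681 bases, a range that holds all 7 genes. The median log2 fold change was 0.19 over the 7 genes and 0.12 without ammonium acetate 6 and 8. Gapdh, the dehydrogenase often used as a reference gene, had the highest level of this group. It measured 8002, 6064, 7610 and 5600 FPKM in PBS 4, 5, 7 and 8, and 7051, 7918, 9973, 7054 and 8810 in ammonium acetate 4 to 8. Among all 9 libraries the ratio of the highest to the lowest Gapdh level was 1.78, against 1.31 for Pkm, the pyruvate kinase, which had the smallest such ratio of the list. Pkm averaged 1602 ± 186 and 1746 ± 119 FPKM.

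Phosphoglycerate kinase (Pgk1, chromosome X, 106187100 to 106203699, plus strand) makes the first ATP of the lower steps. Its level was 571, 520, 502 and 458 FPKM in PBS 4, 5, 7 and 8, and 558, 555, 656, 597 and 756 in ammonium acetate 4 to 8. Only PBS 4 reached into the range of ammonium acetate. The log2 fold change of 0.28 (SE 0.12, unadjusted p = 0.0455, adjusted p = 0.527) was 0.16 without ammonium acetate 6 and 8. The muscle enolase Eno3 averaged 3828 ± 379 and 4358 ± 485 FPKM, and Pgam2 2288 ± 389 and 2701 ± 439. The common forms Eno1 and Pgam1 measured 43.6 ± 3.61 and 4.38 ± 0.573 FPKM in PBS, and 42.7 ± 5.65 and 5.05 ± 0.982 in ammonium acetate. Pgam1 rested on 182 to 398 reads per library. Copies that resemble Pgam1, Eno1, Ldha and Pgk1 have rows of their own in the table with at most 0.832 FPKM, and the treatment of reads that match several genes is not stated.

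Lactate dehydrogenase is a tetramer of A and B subunits, and the B subunit prevails in oxidative fibres and heart. Ldha measured 2051, 1675, 2024 and 1539 FPKM in PBS 4, 5, 7 and 8, and 1838, 1998, 2336, 1818 and 2252 in ammonium acetate 4 to 8. Ldhb measured 241, 361, 129 and 299.9 FPKM in PBS 4, 5, 7 and 8, and 152, 184, 199, 312 and 199 in ammonium acetate 4 to 8. The PBS range of Ldhb thus enclosed the whole ammonium acetate range, and its log2 fold change was -0.24 (interval -0.85 to 0.36, adjusted p = 0.680). It ran from -0.05 without PBS 5 to -0.54 without PBS 7. The markers of slow and oxidative fibres, 10 genes including Myh7 and Tnni1, summed to 1805, 2259, 875 and 2442 FPKM in PBS 4, 5, 7 and 8, and 1000.2, 2069, 2005, 2140 and 1237 in ammonium acetate 4 to 8. PBS 7 and ammonium acetate 4 were the lowest of the 9 libraries both in this sum and in Ldhb, and PBS 5, PBS 8 and ammonium acetate 7 the highest in both. Pygm, the glycogen phosphorylase, was at its 2 highest values in PBS 7 and ammonium acetate 4. Other libraries departed from this order. Ammonium acetate 5 reached 3331 FPKM of Pygm at a marker sum of 2069, and ammonium acetate 8 had 2478 at 1237. The part of fibre type in the spread of these genes was not tested.

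**Figure D3:**
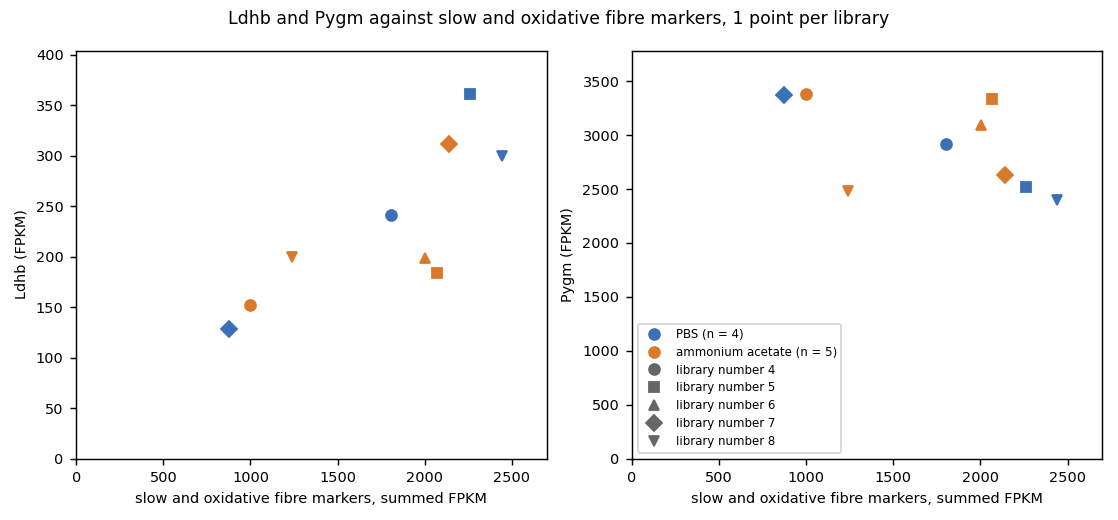
Ldhb (left) and Pygm (right) in FPKM against the summed FPKM of 10 markers of slow and oxidative fibres, with 1 point per library, blue for PBS and orange for ammonium acetate. The libraries with the lowest marker sums (PBS 7 at 875 and ammonium acetate 4 at 1000.2) have the lowest Ldhb and the highest Pygm. Other libraries depart from this for Pygm: ammonium acetate 8 has 2478 FPKM at a sum of 1237, and ammonium acetate 5 has 3331 at 2069.

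Glycerol phosphate dehydrogenases in the cytosol (Gpd1) and in mitochondria (Gpd2) carry the electrons of glycolysis towards the respiratory chain. Gpd1 averaged 165 ± 15.2 and 183 ± 15.2 FPKM (log2 fold change 0.15, interval -0.07 to 0.37). Gpd2 measured 30.4 ± 6.52 and 28.9 ± 5.78 FPKM.

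Of the 6 genes of glycogen breakdown 5 had higher values in ammonium acetate, against 43.9% of all genes tested, and none passed the test. Pygm measured 2920, 2519, 3376 and 2403 FPKM in PBS 4, 5, 7 and 8, and 3379, 3331, 3090, 2627 and 2478 in ammonium acetate 4 to 8, so the groups overlapped almost fully. The difference was 0.09 on the log2 scale, with an interval from -0.265 to 0.44. Phosphorylase kinase, which switches the phosphorylase on, is built from a catalytic subunit (Phkg1) and regulatory subunits (Phka1, Phkb). The 3 genes lay close together, at 149.6 ± 18.8, 153 ± 23.7 and 118 ± 16.7 FPKM in PBS, and at 157 ± 13.6, 157 ± 43.0 and 123 ± 18.4 in ammonium acetate.

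Phosphoglucomutase links glycogen and glycolysis by moving the phosphate of glucose phosphate. The symbols of the 2 listed genes named for it are exchanged between the deposited table and RefSeq, so they are told apart by position. The row listed as Pgm2 (ENSMUSG00000025791, chromosome 4, 99929414 to 99987294) is called Pgm1 in RefSeq, and it averaged 557 ± 109 and 648 ± 73.3 FPKM. The row listed as Pgm1 (ENSMUSG00000029171, chromosome 5, 64092936 to 64128355) is called Pgm2 in RefSeq, and it had the lowest level of the list. It measured 0.753, 0.922, 0.892 and 1.69 FPKM in PBS 4, 5, 7 and 8, and 0.399, 0.689, 0.343, 1.37 and 0.404 in ammonium acetate 4 to 8, on 21 to 135 reads. Ammonium acetate 7 lay among the PBS libraries and the other 4 below them all. Its log2 fold change was -0.49 (SE 0.25, adjusted p = 0.527), -0.28 without ammonium acetate 6 and 8, and -0.81 by voom on recovered reads, which adds no pseudocount of 0.5 FPKM.

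Of the 6 genes of glycogen synthesis 3 had higher and 3 lower values in ammonium acetate, where 43.9% of all genes tested were higher, and none passed the test. Ugp2, which makes the UDP-glucose that glycogen synthase uses, had the highest PBS mean. It measured 279.9, 354, 254 and 277 FPKM in PBS 4, 5, 7 and 8, and 332, 310.4, 316, 337 and 367 in ammonium acetate 4 to 8. Only PBS 5 reached into the ammonium acetate range (log2 fold change 0.20, SE 0.12, adjusted p = 0.527). Glycogenin (Gyg), the protein primer of each glycogen particle, had the smallest coefficient of variation in PBS (3.95%), at 209.8 ± 8.29 FPKM, and measured 245 ± 37.2 in ammonium acetate. Gys1 measured 139.8, 147, 130.1 and 137 FPKM in PBS 4, 5, 7 and 8, and 137, 127, 101.4, 137 and 87.8 in ammonium acetate 4 to 8. Its log2 fold change of -0.25 (SE 0.14, adjusted p = 0.527) was -0.05 without ammonium acetate 6 and 8, the 2 lowest libraries. The branching enzyme Gbe1 was at 19.7 ± 4.12 and 18.0 ± 3.15 FPKM.

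The genes of the glycogen-targeting subunits of protein phosphatase 1 had log2 fold changes of opposite sign. Ppp1r3c (ENSMUSG00000067279, chromosome 19, 36731737 to 36736653, minus strand) had the highest log2 fold change of the 34 genes, 0.55 (SE 0.24, unadjusted p = 0.0441, adjusted p = 0.527). It measured 291, 166, 172 and 216 FPKM in PBS 4, 5, 7 and 8, and 238, 212, 280.1, 353 and 497 in ammonium acetate 4 to 8. Ammonium acetate 7 and 8 lay above every PBS library, and the other 3 lay within the PBS range. The log2 fold change was 0.34 without ammonium acetate 6 and 8, 0.56 with the gene length trend removed, and from 0.37 (without ammonium acetate 8) to 0.71 (without PBS 4) with single libraries left out. Ppp1r3a, the larger subunit of striated muscle, measured 56.5, 61.0, 68.9 and 61.8 FPKM in PBS 4, 5, 7 and 8, and 64.2, 60.8, 43.7, 51.2 and 46.6 in ammonium acetate 4 to 8. Its log2 fold change was -0.23 (SE 0.13, adjusted p = 0.527), and 0.003 with the gene length trend removed, the gene being the longest of the list at 7120 bases.

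The share of each isozyme in its pair or family does not depend on how libraries are scaled, and 8 shares were compared by an exact two-sided permutation test, where the smallest p possible is 0.00794. None passed 0.05, and the smallest adjusted p over the 8 was 0.470. Pgam2 made up 99.8% ± 0.0376 of the phosphoglycerate mutase FPKM in the 4 PBS libraries and 99.8% ± 0.0460 in the 5 with ammonium acetate (mean and SD). Pfkm made up 99.7% ± 0.0572 and 99.7% ± 0.0423 of its family, Eno3 98.9% ± 0.0764 and 99.0% ± 0.206, and Hk2 96.0% ± 0.264 and 96.4% ± 0.778. The muscle forms thus prevailed in every library of both groups.

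Shares with a smaller margin varied more. Ppp1r3c made up 83.7%, 73.1%, 71.4% and 77.8% of its pair with Ppp1r3a in PBS 4, 5, 7 and 8, and 78.7%, 77.7%, 86.5%, 87.3% and 91.4% in ammonium acetate 4 to 8. This was the share of smallest p, with a difference of 7.83 percentage points (exact permutation p = 0.0873, adjusted p = 0.470). With single libraries left out, the difference ran from 6.06 points without ammonium acetate 8 to 10.2 points without PBS 4. A trend with gene length does not cancel in a share, and Ppp1r3c and Ppp1r3a are 2719 and 7120 bases long. The libraries apart by gene length, ammonium acetate 6 and 8, held shares of 86.5% and 91.4%. Ammonium acetate 4, 5 and 7 held 78.7%, 77.7% and 87.3%, against a PBS mean of 76.5%. Ldhb made up 12.6% ± 5.42 of the lactate dehydrogenase FPKM in PBS and 9.34% ± 2.98 in ammonium acetate. Pfkfb3 made up 74.9% ± 7.99 and 71.1% ± 6.29 of its pair with Pfkfb1, and Gpd1 84.6% ± 2.32 and 86.4% ± 1.92 of its pair with Gpd2.

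**Figure D4:**
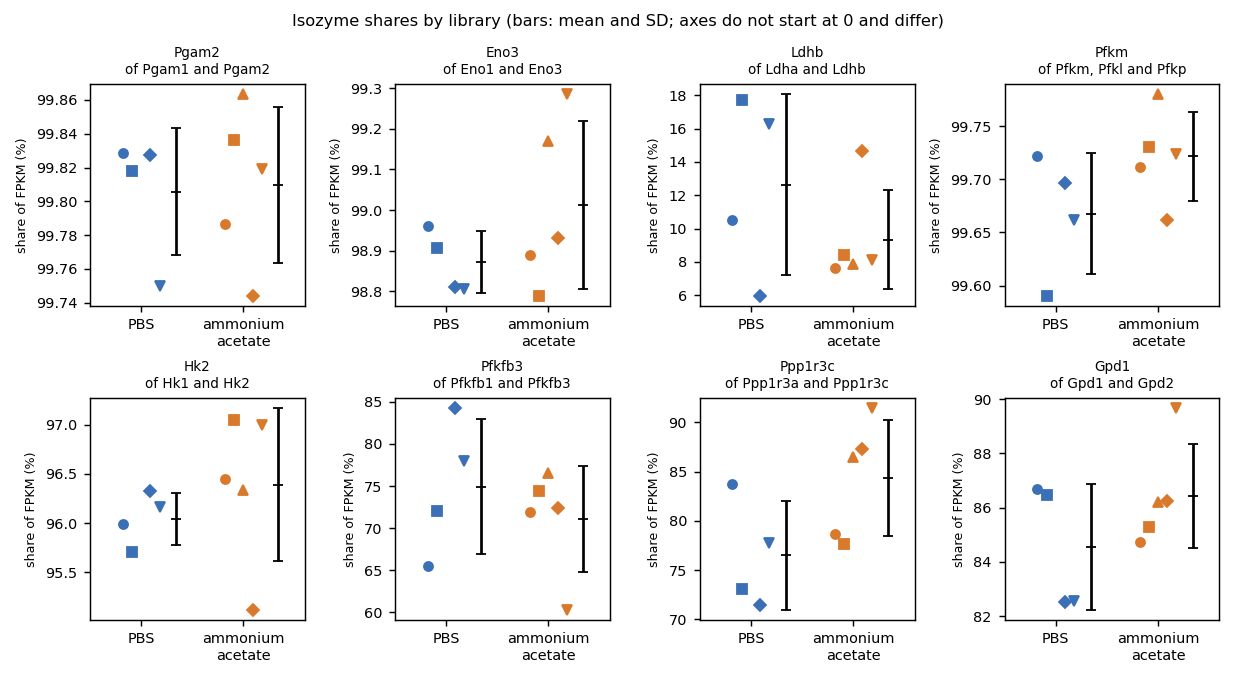
Share of FPKM taken by 1 isozyme of each pair or family, in percent, with 1 point per library (blue PBS, orange ammonium acetate, shape by library number) and the mean with SD beside them; the axes differ and do not start at 0. The groups overlap in all 8 panels, and Ppp1r3c reaches its 3 highest shares in ammonium acetate 6, 7 and 8.

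Among the listed genes, higher values in ammonium acetate were more frequent in the shorter than in the longer ones. Ordered by length, the 17 shorter genes (840 to 2681 bases) had higher values in ammonium acetate in 13 cases, with a median log2 fold change of 0.19. The 17 longer genes (2683 to 7120 bases) had higher values in 7, with a median of -0.07. Over all genes tested in the same length ranges, 64.1% of the shorter and 30.8% of the longer were higher, with medians of 0.08 and -0.10. The Spearman correlation of the log2 fold change with length was -0.63 over the 34 genes and -0.495 over all 11337, as a description across genes that share the same 9 libraries. Without ammonium acetate 6 and 8 it was -0.16 over the 34 genes and -0.22 over all genes, and the medians of the shorter and longer genes were both 0.09. In these 2 libraries the shorter genes stood at a median of 0.27 and 0.34 above the PBS mean on the log2 scale, and the longer ones at -0.21 and -0.30. Deviations in the other 3 ammonium acetate libraries were 0.06 to 0.13 for the shorter and -0.04 to 0.195 for the longer genes. How much of each difference goes with length was not tested gene by gene.

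**Figure D5:**
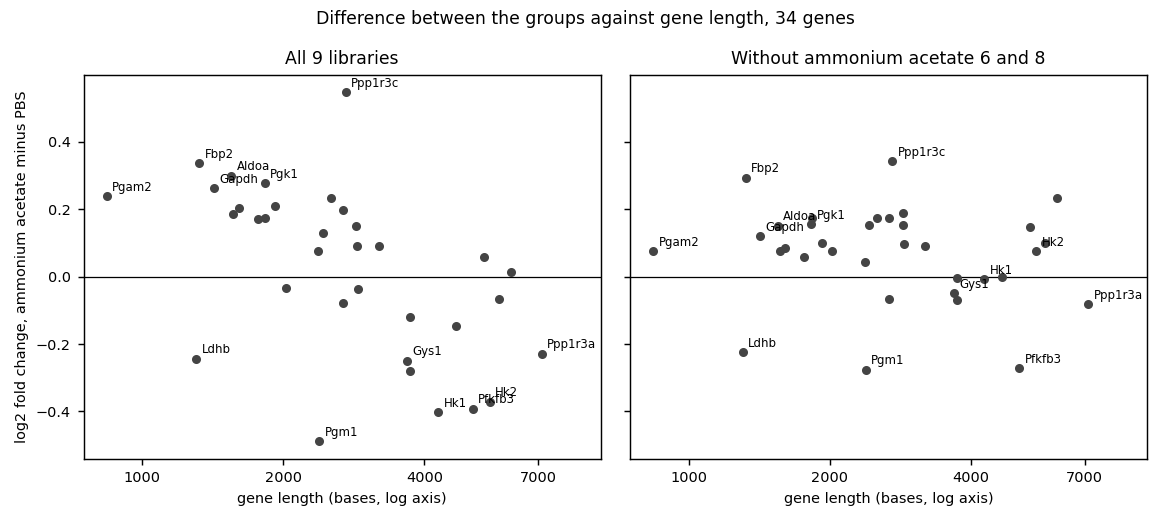
Log2 fold change (ammonium acetate minus PBS) against gene length in bases on a log axis, with 1 point for each of the 34 genes, for all 9 libraries (left) and without ammonium acetate 6 and 8 (right). On the left the long genes Hk1, Hk2, Gys1 and Ppp1r3a lie below 0 and the short genes Pgam2, Gapdh, Aldoa and Pgk1 above it. On the right these 8 genes lie nearer to 0. Other genes depart from this: the short gene Ldhb lies below 0. The long genes Phka1 and Phkb, not labelled, lie above 0 on the left (0.013 and 0.057) and further above it on the right (0.233 and 0.146).

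Another 43 genes of sugar handling were read from the same fit, of which 42 were matched in the table and 33 passed the filter. None passed an adjusted p of 0.05, 16 were higher and 17 lower, and 2 had an unadjusted p under 0.05 (Pygb and Pfkfb4). Pygb, the phosphorylase of brain, measured 1.54, 3.23, 2.82 and 2.85 FPKM in PBS 4, 5, 7 and 8, and 1.42, 1.78, 0.837, 2.16 and 1.10 in ammonium acetate 4 to 8 (log2 fold change -0.67, adjusted p = 0.527). Pfkfb4, a relative of Pfkfb3, measured 16.3 ± 3.20 and 20.8 ± 3.46 FPKM. Stbd1, which binds glycogen and ties it to membranes, measured 24.2 ± 5.53 and 33.9 ± 10.6 FPKM. As with Ppp1r3c, its 2 highest values were in ammonium acetate 7 and 8 and its highest PBS value in PBS 4. This likeness was picked after the values were seen and was not tested. Ppp1r3d, another glycogen-targeting subunit of protein phosphatase 1, measured 1.21 ± 0.346 and 0.832 ± 0.177 FPKM. Slc2a4 is added for its place in the pathway, a choice made after its values were seen. It encodes the insulin-responsive glucose transporter and measured 218 ± 19.4 and 225 ± 18.6 FPKM (log2 fold change 0.04).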

How the data were processed

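RNA of gastrocnemius was sequenced from 4 PBS and 5 ammonium acetate libraries, and groups follow the labels. The deposited table holds FPKM values for 35275 genes. STAR, TopHat, HTSeq, DESeq2 and the build mm10 are named, without versions, in the submitters' processing notes, and which tool made the table, its strand setting and its treatment of reads with several matches are not stated in them, in the labels or in the table. Multiplied by gene length, the FPKM values of each library gave whole reads for 100.0% of values (within 0.05 read), from 24930547 to 41780251 per library.

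From these values, log2(FPKM + 0.5) was compared by limma 3.58.1 with a mean-variance trend (R 4.3.3) in the 11337 genes with a mean of at least 0.5 FPKM, two-sided, with Benjamini-Hochberg adjustment over all of them and a threshold of 0.05. Fold changes on this scale understate the change of low genes. The 34 genes, the other lists and the tests were chosen with earlier results of these data known. Values per library are given for the 6 genes of smallest p, the gene of highest level in each role and the isozyme pair whose share had the smallest p, and the values of the other listed genes as means or ranges. Outside the list, the 4 genes of smallest p are named, and a few genes of the pathway are not reported here. Per-library values of Hk2, Ldhb and Pygb and of the marker sums were added after the values were seen, as was the likeness of Stbd1 to Ppp1r3c. Alternatives were other pseudocounts, filters, scalings and variance models, library weights, a replicate block, removal of the gene length trend, voom on the recovered reads, and libraries left out. The scripts were tested on simulated data. Upstream windows came from RefSeq (GRCm38.p6), matched by position, strand and symbol, with the symbols of Pgm1 and Pgm2 exchanged. Gene positions are those of the deposited table (mm10), which overlap the same Ensembl IDs in GENCODE M21 for all 34 genes. Figures were drawn with matplotlib 3.10.9 in Python 3.11.15.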

Additional observations from a re-analysis of the deposited data

Results flagged for a closer look

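In groups of 4 or 5 libraries, 1 library was marked where its distance to the nearest other exceeded Dixon's critical share of the group's range. Of 152 groups screened 11 were marked, and chance marks about 1 group in 20.

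Among the listed genes, Phkg1 stood at 133.983 FPKM in ammonium acetate 7, where the other 4 libraries lay from 159 to 169. Pgm2 (RefSeq Pgm1) stood at 522.431 FPKM in the same library, against 661 to 711. Phkb was at 142.396 FPKM in PBS 7, against 105 to 112 in the other PBS libraries. The share of Ldhb in lactate dehydrogenase was 14.6406% in ammonium acetate 7, against 7.66% to 8.43%. The share of Pfkfb3 was 60.335% in ammonium acetate 8, against 71.9% to 76.5%, and the share of Pgam2 was 99.7497% in PBS 8, against 99.8178% to 99.8283%.

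Among the other genes of sugar handling, 2 that are typical of liver and testis were marked in ammonium acetate 7. Fbp1, the liver fructose bisphosphatase, was at 0.918 FPKM there (46 reads), against 0 to 0.110 in the other 4 libraries, and Ldhc, the lactate dehydrogenase of testis, at 3.04 FPKM (141 reads), against 0 in the other 4. Pdk4, a kinase that inhibits pyruvate dehydrogenase in mitochondria, was at 602 FPKM in ammonium acetate 7, against 48.5 to 183, and at 543 FPKM in PBS 5, against 107 to 147. Gpd1l was at 8.12 FPKM in ammonium acetate 6, against 9.18 to 9.39.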

How the results depend on the processing

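No listed gene and no gene of the table passed the adjusted threshold in any of the 21 alternatives run. The median log2 fold change of the 34 genes stayed above 0 in each, from 0.03 (without PBS 8) to 0.15 (median-ratio scaling). Of 712 log2 fold changes of single genes under an alternative, 687 kept their sign, and 26 genes kept it in every one. The 25 of the other sign follow. Without ammonium acetate 6 and 8 these were Hk2 at 0.075, Pfkm at 0.096, Eno1 at 0.077 and Gpd2 at 0.10, with the share of Pgam2 at -0.0168 and of Eno3 at -0.00102 percentage points. With median-ratio scaling, Pfkm was at 0.026 and Eno1 at 0.030. With library weights Pfkm was at 0.042, Eno1 at 0.104 and Gpd2 at 0.063, and with voom Pfkm was at 0.010 and Eno1 at 0.015. With the length trend removed Gpd2 was at 0.115 and Ppp1r3a at 0.003. With single libraries left out, Pfkm ran from -0.096 to 0.021, Eno1 from -0.101 to 0.023, Pfkfb1 from -0.128 to 0.007, Gpd2 from -0.171 to 0.056, Phka1 from -0.116 to 0.107, Phkb from -0.008 to 0.152 and the share of Pgam2 from -0.0146 to 0.0205 points. The cause was not tested.

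Libraries of the 2 groups share the numbers 4, 5, 7 and 8. Deviations of same-numbered libraries correlated at -0.337 to -0.0734, and 0 of 4 libraries in either group lay closest to its own number, so the numbers were not taken as pairs. With the number as a replicate block the median was 0.07 with 0 genes called, 260 genes instead of 972 had an unadjusted p under 0.05, and Pfkm was at 0.003. Ammonium acetate 6, the only library of its number, adds nothing to the difference in that fit. Depth limits Pgm1 most, at 21 to 135 reads.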
